A study of Mus musculus with 77 samples.

Results

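Chromosome 9 of the mouse was described through every 80-kb bin that the deposited replication profiles place on it, which were 1550 of 32973 bins in genome build mm9. Of these, 1512 bins were called in at least 1 cell, 371 were called in every cell and 38 were never called. The called bins ran from 3040001 to 124000000, a span of 120.96 Mb. The profiles came from single-cell Repli-seq, which reads from the DNA copy number of 1 cell which parts of the genome it has already copied. All cells were blastomeres of BDF1 embryos from somatic nuclear transfer (SCNT), where a somatic nucleus replaces the chromosomes of the oocyte, and all embryos were cultured in vitro in CZB medium. The 8-cell group held 49 cells of 12 embryos and the 4-cell group held 28 cells of 14 embryos. The donor cell type is not given in the sources used here, fertilised embryos were not analysed here, and both groups therefore share the SCNT treatment. An 8-cell embryo gave 1 to 8 cells and a 4-cell embryo 1 to 4, so the embryo served as the replicate. The authors' annotation places all 8-cell cells in a later batch and splits the 4-cell cells into 12 cells of 7 embryos in an earlier batch and 16 cells of 7 embryos in the later one.

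A mammalian chromosome is copied during S phase in a set order, in domains that span many kilobases to several megabases. Early domains tend to be gene-rich, transcribed and inside the nucleus, and late domains tend to be gene-poor and attached to the nuclear lamina. Chromosome 9 carries genes for the upkeep of DNA methylation and chromatin, clusters of matrix metalloproteinase and apolipoprotein genes, and several large genes of neural cell adhesion.

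By the mean of both stages, the neighbourhoods of Foxl2, a forkhead transcription factor of the ovary, and Smarca4, the catalytic subunit of BAF chromatin remodelling complexes, were the earliest of the genes examined. Those of Htr1b, a serotonin receptor, and Ntm, a cell adhesion protein of the IgLON family, were the latest by the same measure. The 250 bases upstream of their start sites are shown so that both extremes of the replication order can be set side by side, with each CG dinucleotide in capitals. RefSeq gives the Foxl2 sequence at chr9:98955357-98955606 (plus strand), that of Smarca4 at chr9:21615919-21616168 (plus strand) and that of Htr1b at chr9:81633833-81634082 (minus strand). It lists 2 starts for Ntm, at chr9:29413453-29413702 and chr9:29412686-29412935 (both minus strand). These positions are in build GRCm38.p6 and differ from positions in mm9, the build of the rest of the text.
Foxl2: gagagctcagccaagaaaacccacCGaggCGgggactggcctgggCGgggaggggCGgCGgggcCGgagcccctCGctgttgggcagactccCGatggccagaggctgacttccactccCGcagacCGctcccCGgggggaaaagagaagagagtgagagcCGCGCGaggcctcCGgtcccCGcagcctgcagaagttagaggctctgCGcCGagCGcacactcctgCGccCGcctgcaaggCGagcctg
Smarca4: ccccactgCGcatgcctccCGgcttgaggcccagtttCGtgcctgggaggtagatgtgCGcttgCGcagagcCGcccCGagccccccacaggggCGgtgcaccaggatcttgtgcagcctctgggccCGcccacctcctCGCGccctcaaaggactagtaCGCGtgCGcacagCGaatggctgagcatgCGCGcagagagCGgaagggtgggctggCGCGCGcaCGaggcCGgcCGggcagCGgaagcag
Htr1b: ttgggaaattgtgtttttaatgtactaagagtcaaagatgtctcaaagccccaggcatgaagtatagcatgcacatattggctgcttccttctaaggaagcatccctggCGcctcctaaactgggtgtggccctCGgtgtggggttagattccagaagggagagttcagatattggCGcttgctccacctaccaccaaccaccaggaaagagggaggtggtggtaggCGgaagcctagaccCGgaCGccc
Ntm, start 1: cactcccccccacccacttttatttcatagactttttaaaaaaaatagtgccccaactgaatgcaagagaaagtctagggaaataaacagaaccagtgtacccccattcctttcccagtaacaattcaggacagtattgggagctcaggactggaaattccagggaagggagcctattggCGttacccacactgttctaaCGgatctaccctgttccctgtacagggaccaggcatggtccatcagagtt
Ntm, start 2: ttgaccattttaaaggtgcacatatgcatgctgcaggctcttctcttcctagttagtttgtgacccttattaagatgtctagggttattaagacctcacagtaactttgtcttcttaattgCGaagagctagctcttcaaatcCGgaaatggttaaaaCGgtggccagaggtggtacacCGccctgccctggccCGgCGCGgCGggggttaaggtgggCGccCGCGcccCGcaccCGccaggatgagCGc
The Foxl2 sequence held 22 CG dinucleotides and a GC content of 70.8%, and the Smarca4 sequence held 25 and 70.8%. The Htr1b sequence held 6 CG and 52.4% GC, the first Ntm sequence 2 and 46.8%, and the second 14 and 53.6%. The median over 1917 promoter sequences of chromosome 9 was 6 CG and 53.2% GC. Over all 32851 promoter sequences of the table, 92.1% held at least 1 CG, 14.8% held at least 22 and 10.7% at least 25, while 50.4% held at least 6, 81.2% at least 2 and 29.4% at least 14. The CG count did not follow the replication order gene by gene: among 9 loci that were early at both stages and had a listed sequence it ran from 3 to 44 with a median of 24, and among 4 late ones it ran from 6 to 27 with a median of 11. The highest late count belonged to Zic1, a zinc-finger transcription factor of the neural tube, and the lowest early one to Cyp1a1, a cytochrome P450. CG reads the same on both strands, and a gene with several starts was counted by its highest value.

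The share of called autosomal bins that a cell had replicated placed it in S phase. Domains were mapped in cells where this share was 30 to 70%, called mid-S cells here, which numbered 28 from 10 8-cell embryos and 18 from 9 4-cell embryos. Of the 4-cell mid-S cells, 8 cells of 4 embryos belonged to the later batch. The median autosomal share of the mid-S cells was 49.5% in 8-cell embryos and 57.3% in 4-cell embryos, so 4-cell cells were on the whole further along. The files hold states and not reads, so the depth is unknown. On chromosome 9 the median cell had all 1512 callable bins called at either stage, and 3 of the 77 cells had over 20% of them uncalled. These were cell d of 8-cell embryo 11 with 995 called bins, cell a of 8-cell embryo 12 with 1110 and cell d of 4-cell embryo 6 with 1127. All were mid-S cells, and all held a run of 1 state over more than 40 Mb of the chromosome, called a block here. The main results on mid-S cells are therefore given with and without them, and domain and gene values without them are summarised by ranges and counts. No 2 cells had identical profiles.

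Chromosome 9 was ahead of the autosomes as a whole in 7 of 10 8-cell embryos and in 9 of 9 4-cell embryos. In mid-S cells it was replicated to 28.8% in the lowest 8-cell embryo, 51.4% in the median one and 69.3% in the highest, against 51.0%, 59% and 71.3% in the lowest, median and highest 4-cell embryos. The groups overlapped from 51.0 to 69.3%, which is most of the 4-cell range but not of the 8-cell range. Set against all autosomes of the same cell, chromosome 9 lay at -27.0 percentage points in the lowest 8-cell embryo, 2.66 in the median one and 8.69 in the highest, and at 1.34, 6.35 and 12.8 points in the lowest, median and highest 4-cell embryos. The 8-cell mean was 0.921 ± 10.4 points (SD, n = 10 embryos, 7 of them above 0) and did not pass a test against 0 (exact sign-flip test, two-sided; adjusted p = 0.913 over 20 chromosomes). The 4-cell mean was 6.43 ± 3.96 points (SD, n = 9 embryos, 9 of them above 0) and passed (exact sign-flip test, adjusted p = 0.026). By these means chromosome 9 ranked 8 of 19 autosomes from the top at the 8-cell stage and 3 of 19 at the 4-cell stage. The stages differed by -5.51 points, and the difference did not pass (exact permutation test, two-sided, p = 0.12, adjusted p = 0.7).

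The level of each stage turned on the 3 cells with a block. Without them the 8-cell mean was 5.08 ± 4.99 points (SD, n = 10 embryos) and passed the test (exact sign-flip test, adjusted p = 0.0174), while the 4-cell mean was 3.77 ± 10.5 points (SD, n = 9 embryos) and did not (exact sign-flip test, adjusted p = 0.553). The highest 8-cell value was then that of embryo 11, at 14.9 points, where it had been -1.09. That embryo kept cell c, which holds no block and lay 39.9 points above its autosomes. The lowest 4-cell value was then that of embryo 6, at -22.6 points, and the stage difference turned to 1.3 points (exact permutation test, adjusted p = 0.81). Within the 4-cell stage, chromosome 9 lay at 5.73 ± 4.32 points in the later batch (SD, n = 4 embryos) and at 7.0 ± 4.07 points in the earlier batch (SD, n = 5 embryos). The plot of chromosome 9 against the autosomes shows how few cells set these values.

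**Figure D1:**
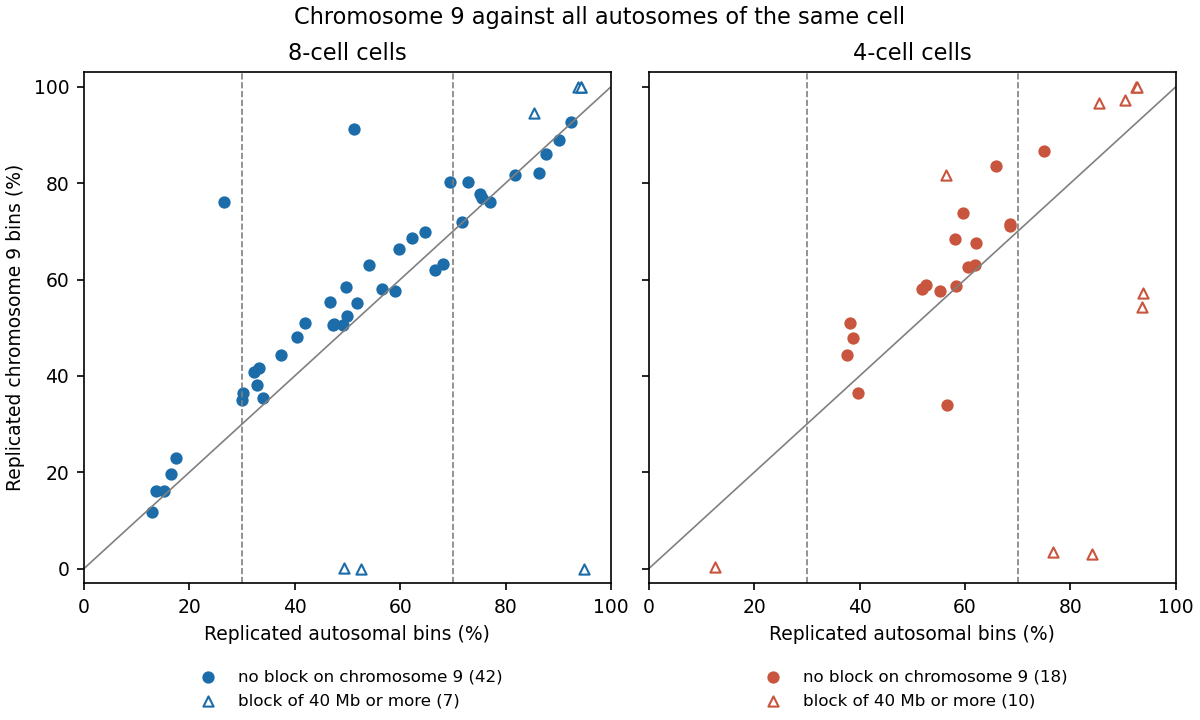
Replicated percent of the called bins of chromosome 9 (vertical axis) against that of all called autosomal bins of the same cell (horizontal axis), 1 point per cell, for 49 8-cell cells on the left and 28 4-cell cells on the right. The grey diagonal marks equal values, dashed lines mark 30 and 70%, and open triangles are the 7 and 10 cells with a block of 40 Mb or more. Most circles lie near or just above the diagonal, while most triangles lie near the top and bottom edges. Away from the edges are cells a and b of 4-cell embryo 5, at 57.1 and 54.3%, and cell d of 4-cell embryo 6, at 81.7%.

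A bin was called early where the share of mid-S cells that had replicated it, averaged over embryos, was at least 80%, and late where it was at most 20%; neighbouring bins of a class were joined into domains. Early bins made up 35.8% of the 1512 mapped bins at the 8-cell stage, in 42 domains with a summed length of 44.7 Mb, and 41.2% at the 4-cell stage, in 38 domains of 51.2 Mb. Late bins made up 31.7% at the 8-cell stage, in 37 domains of 39.3 Mb, and 16.5% at the 4-cell stage, in 24 domains of 21.3 Mb. On the other autosomes the median early share was 32.5% in 8-cell embryos and 32.4% in 4-cell embryos, and the median late share was 33.4% and 21.5%. Without the 3 block cells the early shares of chromosome 9 were 40.9% and 40.1%, and the late shares 31.2% and 18.8%. The 8-cell map holds no cell of the earlier batch. With that batch left out, the 4-cell map rested on 4 embryos and had 32.3% early and 5.76% late bins. Its early share was then below the 35.8% of the 8-cell map, and its late share was further below 31.7%. These shares are a description: they were not matched for the further progress of the 4-cell cells.

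The early map was largely common to the stages. Of the early bins, 485 were early at both stages, which is 89.6% of those of the 8-cell stage and 77.8% of those of the 4-cell stage. Another 218 bins were late at both stages, 45.5% of the late bins of the 8-cell stage and 87.2% of those of the 4-cell stage. Only 1 bin was early at the 8-cell and late at the 4-cell stage, and 1 bin was the reverse. Over 1512 bins, which share cells and are not independent, the 2 mean profiles correlated with Pearson's r = 0.882. The plot of mean profiles shows the shared peaks and troughs.

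**Figure D2:**
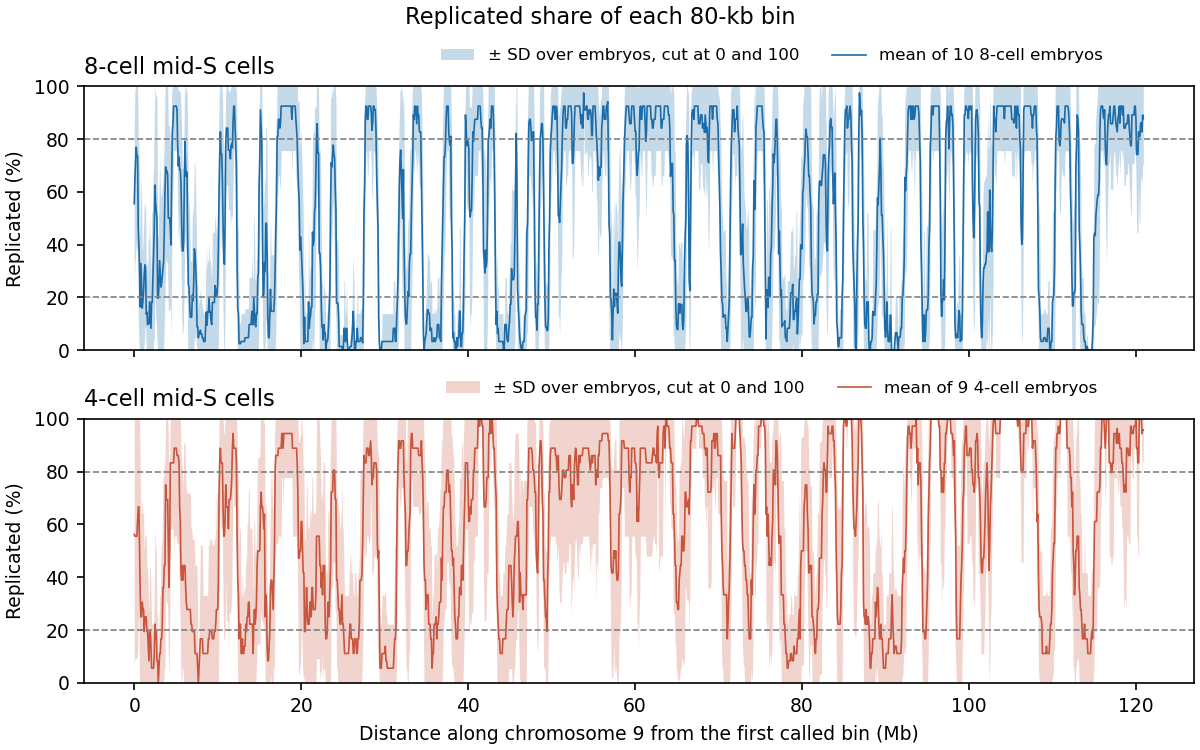
Mean replicated percent of each 80-kb bin over mid-S embryos (line) with the SD over embryos (shading, limited to 0 and 100), against the distance along chromosome 9 from its first called bin in Mb, for 10 8-cell embryos above and 9 4-cell embryos below. Dashed lines mark the 80% and 20% limits of early and late bins; many peaks and troughs lie at the same distances in both panels, and more bins lie under the lower line in the 8-cell panel, 31.7% against 16.5%.

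Of the 6 longest early domains of the 8-cell map 5 began beyond 50 Mb, and of the 6 longest late ones 5 ended before 40 Mb. In 10-Mb steps, the segment from 50000001 to 60000000 lay 24.3 points above the autosomes at the 8-cell stage and 27.3 points above them at the 4-cell stage. The last called stretch, from 120000001 to 124000000, lay 36.3 and 35.1 points above. The segment from 10000001 to 20000000 lay at -20.1 and -15.9 points, the lowest of the 13 steps at each stage, and the one from 30000001 to 40000000 at -14.7 points in 8-cell embryos and -2.86 points in 4-cell embryos. The values did not form a gradient from end to end: the segment from 90000001 to 100000000 was again below the autosomes, at -8.48 and -5.8 points. Without the block cells the segment from 30000001 to 40000000 lay at -11.4 points in 8-cell embryos and -7.45 points in 4-cell embryos, so the distance between stages was smaller, and the one from 90000001 at -4.67 and -7.38 points. Between stages no segment passed. The lowest p was that of the segment from 30000001 to 40000000, block cells included (exact permutation test, p = 0.0144, adjusted p = 0.159 over the 13 steps).

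The longest early domain of the 8-cell map ran from 119680001 to 124000000, the last called bin, over 4.32 Mb. It was replicated to 50, 89.4 and 100% in the lowest, median and highest 8-cell embryos, against 59.6, 91.7 and 100% in the 4-cell embryos. It holds the places of Ctnnb1, the gene of beta-catenin, and of Cck, the gene of cholecystokinin. The domain from 54320001 to 58480000, which holds Cyp1a1, averaged 88.6% ± 15.6 (SD, n = 10) in 8-cell embryos and 88.1% ± 16.4 (SD, n = 9) in 4-cell embryos. The domain from 20160001 to 22560000 holds Dnmt1, the maintenance DNA methyltransferase, and Smarca4. It averaged 90.3% ± 16.2 and 94.1% ± 16.5. The other long early domains of the 8-cell map, from 63600001 to 67280000, from 69840001 to 73040000 and from 106000001 to 109200000, averaged 89.6, 88.3 and 90.4% at the 8-cell stage and 91.2, 91.3 and 99.0% at the 4-cell stage. In each of these 6 domains the lowest 8-cell value was 50%, that of embryo 12, whose cell a had no replicated bin on the chromosome. The next embryo stood at 75% or above in each. Without the block cells the 8-cell means of the 6 domains ran from 93.7 to 97.8%.

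At the 4-cell stage the longest early domain spanned 5.36 Mb from 105760001 to 111120000. It was replicated to 46.3, 92.4 and 100% in the lowest, median and highest 8-cell embryos, against 84.3, 100 and 100% in the 4-cell embryos. The next ran from 55760001 to 60080000, from 63680001 to 67600000, from 19920001 to 22640000, from 118800001 to 121520000 and from 69680001 to 71760000. Their 8-cell means were 85.0, 88.0, 85.9, 87.0 and 86.4%, and their 4-cell means in the same order 90.4, 90.8, 93.5, 91.5 and 95.1%. Each of the 6 overlaps a long early domain of the 8-cell map, with other edges. Without the block cells the 4-cell means of the 6 ran from 84.9 to 98%.

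The longest late domain of the 8-cell map holds Opcml and Ntm, neighbouring genes of the IgLON family of neural cell adhesion. It ran from 27280001 to 30560000, over 3.28 Mb. It was replicated to 0, 4.88 and 11% in the lowest, median and highest 8-cell embryos, against 0, 13.4 and 63.4% in the 4-cell embryos. The 8-cell values are low by the choice of the domain. The domain from 32320001 to 34640000 averaged 4.04% ± 6.63 (SD, n = 10) in 8-cell embryos and 14.7% ± 17.8 (SD, n = 9) in 4-cell embryos. The remaining long late domains of the 8-cell map began at 10560001, 15440001, 37680001 and 92960001. Their 8-cell means were 9.39, 7.38, 6.34 and 6.03%, and their 4-cell means were 14.3, 23.6, 26.7 and 15%. Without the block cells the 8-cell means of the 6 ran from 4.73 to 11.1%.

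The longest late domain of the 4-cell map ran from 10000001 to 12800000. It was replicated to 0, 12.1 and 35% in the lowest, median and highest 8-cell embryos, against 0, 0 and 80% in the 4-cell embryos. Other long ones at this stage ran from 92320001 to 95040000, from 4240001 to 6400000, from 32480001 to 34400000, from 28160001 to 30000000 and from 81040001 to 82880000, near Htr1b. Their 8-cell means were 16.2, 25.5, 3.54, 4.29 and 13.6%, and their 4-cell means in the same order 14.1, 14, 8.45, 15 and 12.2%. The 8-cell mean was thus below the 4-cell mean in some of these domains and above it in others, and the differences were not tested. Without the block cells the 4-cell means of the 6 ran from 3.36 to 14%.

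Around 25 genes of the chromosome, a 1-Mb neighbourhood was read in each embryo. The places of these genes are approximate and come from general knowledge of mm9; the same genes stand on chromosome 9 in the same order in RefSeq, 25 of 25, and the numbers differ by at most 0.269 Mb between the builds. At the 8-cell stage 10 neighbourhoods were replicated to at least 80% and 5 to at most 20%, and at the 4-cell stage 13 and 4. The 8-cell mean was below the 4-cell mean for 22 of 25, beside the lower autosomal share of the 8-cell cells, and for 13 of 25 without the block cells. These differences were not tested gene by gene. Without the block cells the counts were 11 at or above 80% and 5 at or below 20% in 8-cell embryos, and 13 and 5 in 4-cell embryos. The lists below were chosen by hand, and nothing particular to a list was tested. Over the whole chromosome early bins made up 35.8% in 8-cell embryos and 41.2% in 4-cell embryos, and late bins 31.7 and 16.5%. These are shares of 80-kb bins and not of 1-Mb neighbourhoods.

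Of 7 genes with roles in the early embryo and its chromatin, 5 lay in neighbourhoods at or above 80% in 8-cell embryos and 7 in 4-cell embryos. They had a median of 87.2% in 8-cell embryos and 93.7% in 4-cell embryos. Smarca4 was at 50, 100 and 100% in the lowest, median and highest 8-cell embryos, and at 50, 100 and 100% in the 4-cell embryos. The low embryos were 12 and 6. Dppa5a, an RNA-binding protein of early embryos and embryonic stem cells, averaged 87.2% ± 15.2 (SD, n = 10) in 8-cell embryos and 97.2% ± 5.77 (SD, n = 9) in 4-cell embryos. Dnmt1 averaged 89.4 and 93.8%, Tdgf1, the Nodal co-receptor Cripto, 88.9 and 90.5%, and Yap1, a co-activator of Hippo signalling, 84.0 and 90% at the 8-cell and 4-cell stages. Kmt2a, a histone H3 lysine 4 methyltransferase, was at 77.7% ± 18.1 in 8-cell embryos and 93.7% ± 7.85 in 4-cell embryos. Bmp5, a ligand of the BMP family, was the latest of the 7, at 63.2% ± 21.7 and 86.1% ± 11.2.

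Of 3 housekeeping, 2 liver and 1 gonad genes, the neighbourhoods of 2, 1 and 1 were at or above 80% at the 8-cell stage, and those of 2, 2 and 1 at the 4-cell stage. Foxl2 was at 50, 95.8 and 100% in the lowest, median and highest 8-cell embryos, against 91.7, 100 and 100% in the 4-cell embryos. Ctnnb1 averaged 88.1% and 92.6%, and Atm, a kinase of the DNA damage response, 84.5% and 91.2% at the 8-cell and 4-cell stages. Cyp1a1 averaged 88.8% and 86.3%, with 0% in 4-cell embryo 6. The apolipoprotein cluster around Apoa1 averaged 72.0% ± 15.4 in 8-cell embryos and 90% ± 12.1 in 4-cell embryos. The metalloproteinase cluster around Mmp3 averaged 63.3% and 71.2%. Tgfbr2, a receptor of TGF-beta, lay in the middle with a wide spread, at 50.5% ± 23.9 in 8-cell embryos and 47% ± 36.9 in 4-cell embryos.

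Of 8 neural genes, 5 lay in neighbourhoods at or below 20% in 8-cell embryos and 4 in 4-cell embryos. The 8 had a median of 9.82% in 8-cell embryos and 21.1% in 4-cell embryos. Ntm was at 0, 2.78 and 11.1% in the lowest, median and highest 8-cell embryos, against 0, 0 and 50% in the 4-cell embryos. Opcml averaged 3.57% and 18.2%, Zic1 9.27% and 16.0%, and Htr1b 10.4% and 10.9% at the 8-cell and 4-cell stages. Ncam1, the neural cell adhesion molecule, had the widest gap between stage means of the 25, at 0, 2.27 and 22.1% in the lowest, median and highest 8-cell embryos, against 18.2, 27.3 and 100% in the 4-cell embryos. The ranges overlapped slightly, and the gap was picked out for its size. Cntn5, a contactin, averaged 23% and 24.1%, and Kirrel3, a synaptic adhesion gene, 22.6% and 46.3%. Cck was the 1 neural gene above 80%, at 87.7% ± 16.8 and 83.6% ± 15.9.

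The 3 genes of blood cells lay between the early and late limits at both stages, with a median of 31.1% in 8-cell embryos and 47.9% in 4-cell embryos. Rora, a nuclear receptor, averaged 31.1% ± 18.4 (SD, n = 10) and 56.2% ± 35 (SD, n = 9). Zbtb16, which encodes the zinc-finger protein PLZF, averaged 35.5% and 47.9%, and Ets1, a transcription factor of lymphocytes, 22.9% and 32.6%. The plot of the 25 neighbourhoods sets the stages side by side.

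**Figure D3:**
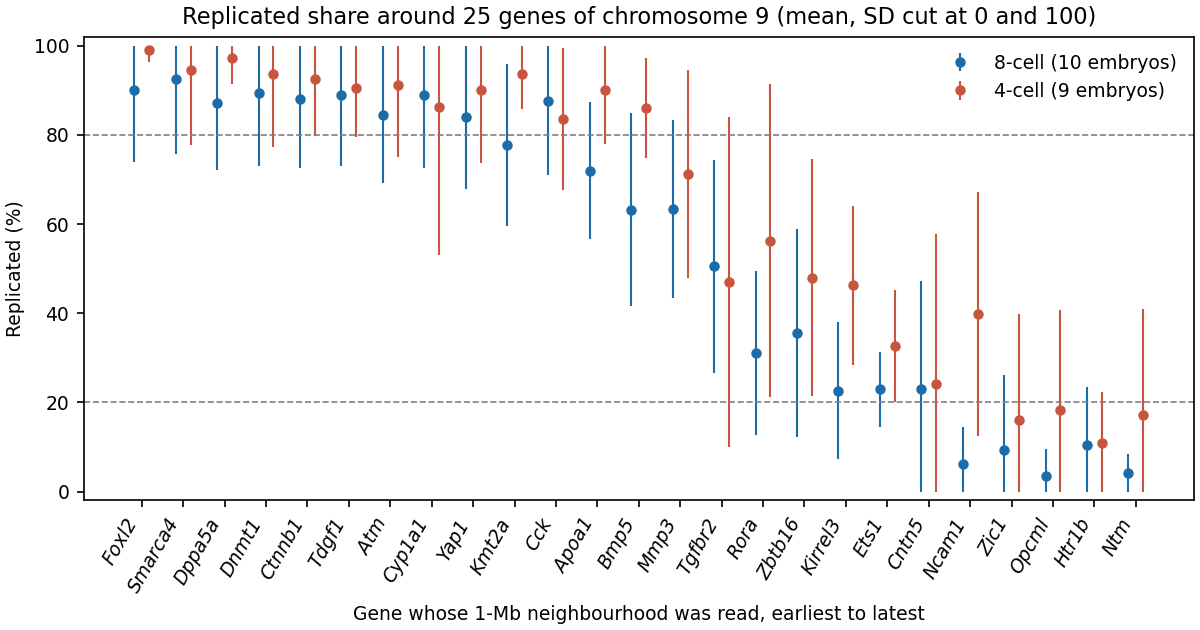
Replicated percent (vertical axis) of the 1-Mb neighbourhoods of 25 genes, ordered from the earliest on the left by the mean of both stages, as means over 10 8-cell embryos (blue, left of each pair) and 9 4-cell embryos (red). Bars are SD over embryos, limited to 0 and 100, and dashed lines mark 80 and 20%; Foxl2 stands at the early end with 90 and 99.1%, and Ntm at the late end with 4.05 and 17.1%.

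The stages were compared in windows of 1 Mb across the genome, with the autosomal share of the embryo as a covariate. On chromosome 9, 1 window passed (limma, adjusted p under 0.05), where 0.711% of all 2533 windows did, 0.513% being later in 8-cell embryos and 0.197% earlier. It ran from 78000001 to 79000000, and overlaps part of the neighbourhood of Dppa5a, which was early at both stages, at 87.2 and 97.2%. The window also overlaps the 8-cell late domain from 78720001 to 79040000. That domain averaged 16.5% in 8-cell embryos, low by its choice, and 62.5% in 4-cell embryos. The window was replicated to 45.8, 61.8 and 75% in the lowest, median and highest 8-cell embryos, against 75, 94.4 and 100% in the 4-cell embryos, so that the groups met at 75%. The means were 62.6% ± 9.16 (SD, n = 10) and 88.7% ± 10.5 (SD, n = 9), with a fitted difference of -23.9 points (SE 5.14, limma adjusted p = 0.0401). Without the chromosome 9 block cells the fitted difference was -16.9 points and did not pass (limma adjusted p = 0.117). With the batch as a term it was -28.0 points (limma adjusted p = 0.0596). Leaving out 1 embryo at a time, the window missed in 12 of 19 fits, with limma adjusted p between 0.0202 without 8-cell embryo 2 and 0.1 without 8-cell embryo 9. At an unadjusted p under 0.05, 18 windows of the chromosome were later and 2 earlier at the 8-cell stage, which is 16.5% of those tested on it, where 15.6% of all windows had such a p. The share was near that of the genome. Without the chromosome 9 block cells 10 were later and 3 earlier, or 10.7%, where 14.3% of all windows had such a p, and the median fitted difference on the chromosome was -0.625 points, against -6.57 points with them.

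State changes along the chromosome were counted as a measure of how finely it was divided. Mid-S cells changed state 3.91, 6.23 and 8.97 times per 100 called bins in the lowest, median and highest 8-cell embryos, against 2.47, 5.23 and 6.59 times in the 4-cell embryos. The lowest embryos were 8-cell embryo 12 and 4-cell embryo 6, which hold block cells. The means were 6.33 ± 1.72 (SD, n = 10) and 5.01 ± 1.45 (SD, n = 9), and the difference of 1.32 missed the threshold (exact permutation test, two-sided, p = 0.0901). Without the 3 block cells it was 1.87 and passed (exact permutation test, p = 0.0109). The 4-cell embryos of the later batch changed state 4.14 ± 1.69 times (SD, n = 4) and those of the earlier batch 5.71 ± 0.847 times (SD, n = 5). The difference within the later batch was 2.19 (exact permutation test, p = 0.0559).

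Mid-S cells were compared pairwise, each with those of other embryos, by the phi coefficient of their states on chromosome 9. This coefficient averaged 0.542 over 314 pairs of 8-cell cells and 0.384 over 141 pairs of 4-cell cells, and the difference of 0.158 missed the threshold (exact permutation test, two-sided, over 10 against 9 embryos, p = 0.136). Another 26 pairs gave no phi because cell a of 8-cell embryo 12 had a single state throughout. The difference was 0.164 without the block cells and passed (exact permutation test, p = 0.0169), and it was 0.287 within the later batch (exact permutation test, p = 0.025). In cells at 40 to 60% of the autosomes it was 0.201 and missed (exact permutation test, p = 0.312). Cells of the same embryo had a mean phi of 0.557 over 37 pairs at the 8-cell stage and 0.433 over 12 pairs at the 4-cell stage.

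The domain map was then read in cells outside the mid-S range, which had not been used to draw it, although some shared an embryo with mid-S cells. In 8-cell cells under 30%, early domains were replicated to 57.8% ± 26 and late domains to 15.2% ± 30.3 (SD, n = 4 embryos). The high late value came from embryo 10, whose late bins stood at 60.8%, while the lowest embryo had 0%. Over both stages the early minus late difference was 34.2 ± 20.5 points (SD, n = 5 embryos, 5 of them above 0; two-sided exact sign-flip test, p = 0.0625, the smallest that 5 embryos allow). Over 70%, the difference was 22.5 ± 27.9 points (SD, n = 13 embryos, 8 of them above 0; exact sign-flip test, p = 0.0176), and 40.7 ± 26.3 points without block cells (SD, n = 7 embryos, 6 of them above 0; exact sign-flip test, p = 0.0313). By stage, the difference over 70% was 31.8 ± 28.2 points at the 8-cell stage (SD, n = 8 embryos, 6 of them above 0) and 7.43 ± 22 points at the 4-cell stage (SD, n = 5 embryos, 2 of them above 0), where 1 embryo was left without block cells. Under 30% the test could not pass at this number of embryos. In the 8-cell cells over 70% and without a block, the domain with Opcml and Ntm was still at 39.2% ± 29.5 (SD, n = 6 embryos), and that from 32320001 to 34640000 at 31.8% ± 35.4.

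Blocks of 40 Mb or more, with up to 3 bins of the other state inside filled, were found on chromosome 9 in 17 cells of 10 embryos, as 20 runs. The limit of 3 held for each stretch inside, and uncalled bins were passed over whatever their number. Of the callable bins in the span, 66.4% were called in cell d of 8-cell embryo 11 and 73.4% in cell a of 8-cell embryo 12. In cell d of 4-cell embryo 6 it was 63.7%. Blocks were in 7 of 49 8-cell cells (5 embryos) and in 10 of 28 4-cell cells (5 embryos). Of the 4-cell cells, 9 of 16 in the later batch and 1 of 12 in the earlier batch held one; the part of the batch in this was not tested. On the other autosomes the median number of cells with such a block was 5 at the 8-cell stage (lowest 4, highest 11) and 8 at the 4-cell stage (lowest 6, highest 14). A block on at least 1 autosome was present in 25 8-cell cells and 18 4-cell cells. Of the chromosome 9 block cells, 2 and 1 were mid-S cells. The shortest block spanned 40.56 Mb, and the longest runs below the limit were 30.64 Mb in cell c of 8-cell embryo 11, from 49600001 to 80240000, and 30.16 and 30.08 Mb in cell a of 4-cell embryo 1.

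At the 8-cell stage 6 of the 7 block cells held a single state over all or nearly all of the chromosome. Cells a and b of embryo 9 were replicated from 3040001 to 124000000, with 94.3 and 93.7% of their autosomes replicated. Cell c of the same embryo had 94.8% of its autosomes replicated and was unreplicated over the same span, at 0 of 1512 bins. Chromosome 9 was the only autosome of that cell at 10% or below, and 18 of its 19 autosomes were at 98% or above. Its sister cells d and e, at 64.6 and 62.2% of the autosomes, had 69.9 and 68.7% of the chromosome replicated. Cell a of embryo 10 was replicated from 3440001, its first called bin, to 124000000, with an autosomal share of 94.3%. Cell d of embryo 11 was unreplicated from 4080001 to 124000000 with 2 bins filled, at 0.201% against 49.3% of its autosomes, and its chromosome 11 stood as low, at 0.209%. Cell a of embryo 12 was unreplicated from 3040001 to 124000000, at 0% against 52.6% of its autosomes. In cell a of embryo 3, which had 85.4% of its autosomes replicated, a replicated block ran from 50000001 to 90560000 with 12 bins filled.

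At the 4-cell stage blocks of sister cells had ends at or near the same bin in embryos 2, 5 and 6. Cells a and b of embryo 4 were replicated over the whole called span, with 92.5 and 92.6% of their autosomes replicated. Cells a and b of embryo 2 were replicated from 3040001 to 84560000 and from 20480001 to 84480000, so the distal ends differed by 1 bin. Past these ends only 4 bins in cell a and 5 bins in cell b were unreplicated, and both cells were replicated again from 84880001. In embryo 5, cell a was replicated up to 72160000 and unreplicated from 72160001 to 124000000, without a filled bin. Cell b was replicated up to 53120000 and unreplicated from 71920001 to 124000000, and both had over 93% of their autosomes replicated. In embryo 6, cells a and c were unreplicated from 6960001, to 123840000 and 123760000, with 76.6 and 84.1% of their autosomes replicated. Cell d of that embryo, at 56.5% of its autosomes, was replicated from 6640001 to 81280000 and unreplicated before it, the reverse of cells a and c at nearly the same position. Other autosomes were also at 10% or below. These were chromosome 2 in both cells of embryos 2 and 4, and chromosome 5 in cell a of embryo 5. In embryo 6 they were chromosome 10 in cells a, c and d, chromosome 6 in cell a, and chromosomes 1, 4, 5 and 8 in cell d. Cell a of embryo 8 was the single block cell of the earlier batch. It had replicated 12.6% of its autosomes and was unreplicated from 3040001 to 72560000 and from 72880001 to 124000000, and 16 of its 19 autosomes were at 10% or below.

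**Figure D4:**
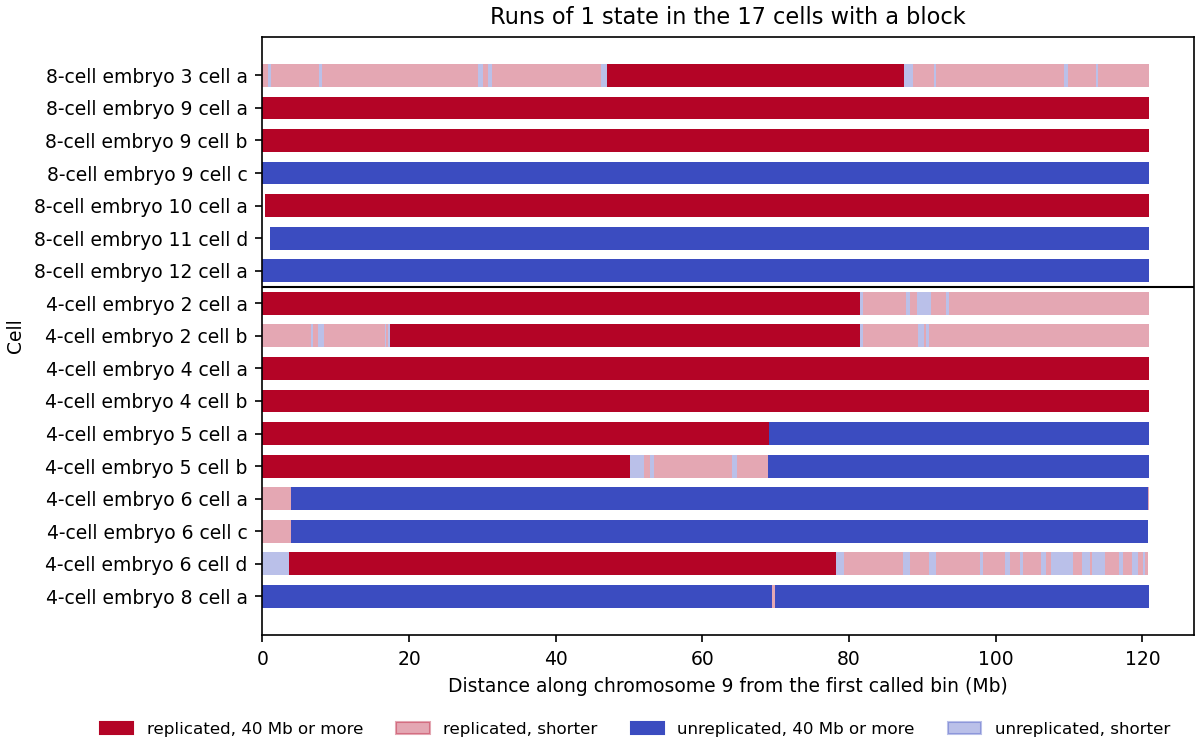
Runs of a single state along chromosome 9 (distance from the first called bin in Mb) in the 17 cells with a block, 7 8-cell cells above the line and 10 4-cell cells below it; red is replicated and blue unreplicated, in full colour from 40 Mb and pale below. Blocks cover the whole called span in embryos 9, 10, 11 and 12 of the 8-cell stage and embryo 4 of the 4-cell stage, and end at or near matching positions in sister cells of 4-cell embryos 2, 5 and 6. In embryo 2 a short unreplicated gap follows, and both cells are then replicated again.

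Block ends other than 3040001 and 124000000, the outer limits of the called bins, numbered 19. At the 4-cell stage they gathered near 3 places: from 6640001 to 6960001 in 3 cells of embryo 6, from 71920001 to 72160001 in both cells of embryo 5, and from 81280000 to 84560000 in 3 cells of embryos 2 and 6. Those of embryo 5 lie inside the early domain from 69840001 to 73040000 of the 8-cell map. In the map of their own stage they lie between early domains, from 69680001 to 71760000 and from 72240001 to 73360000. The ends from 81280000 to 84560000 lie in or beside late domains of that map, from 81040001 to 82880000 and from 84480001 to 84880000. The ends at 20480001 in embryo 2 and 53120000 in embryo 5 lie inside early ones. Those from 6640001 to 6960001 lie between a late and an early one. Both ends of the block in 8-cell embryo 3, 50000001 and 90560000, lie inside late domains of the 8-cell map. The ends at 72560000 and 72880001 in cell a of embryo 8 are no change of state between blocks: both sides are unreplicated, and 4 replicated bins, more than the 3 that are filled, part them. Whether so many ends fall together more often than at other places was not tested.

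In the block cells that lacked the most calls, uncalled bins were unlike called ones in the map; this comparison was chosen after the data had been seen. In cell d of 8-cell embryo 11, which was called unreplicated throughout, the 517 uncalled bins were replicated to 16.7% on average in the 8-cell map without block cells, and its called bins to 75.1%. Of its uncalled bins 391 were late and 4 early in that map. In cell a of 8-cell embryo 12 the 402 uncalled bins stood at 18.9% in the map and the called ones at 68.3%, with 284 late and 15 early bins among the uncalled. Both unreplicated cells thus lacked calls mainly where other cells were late. In 2 cells with replicated blocks, and in a cell without a block, the order was the opposite. In cell d of 4-cell embryo 6 the 385 uncalled bins stood at 71.1% in the 4-cell map and the called ones at 54.6%. In cell a of 8-cell embryo 10 the 129 uncalled bins stood at 97.6% and the called ones at 51.2%, with 125 early and 0 late bins among the uncalled. Cell b of 4-cell embryo 6, which holds no block, lacked 120 bins, which stood at 87.5% in the map against 56.3% for its called bins, with 97 early and 0 late bins among them. The median number of uncalled bins over cells other than those 3 with over 20% uncalled was 0. Copy number in these bins was not analysed here, and its part in the blocks was not tested.

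Sister cells of block cells could also stand apart without a block. Among the 60 cells that held none, 57 lay between -4.77 and 17.8 points from their own autosomes, with a median of 3.32 points. The remaining 3, split off at 20 points after the values had been seen, were all in embryos with a block cell, as were 12 of the other 57. Cell b of 8-cell embryo 10 had 76.1% of chromosome 9 replicated against 26.7% of its autosomes, a gap of 49.4 points, and cell c of 8-cell embryo 11 had 91.1% against 51.2%, a gap of 39.9 points. Both were far ahead, and the late bins of the map without block cells were replicated to 60.5% in the first and 79.6% in the second. In sister cells e and f of embryo 11 these late bins stood at 1.12 and 3.11%. Cell b of 4-cell embryo 6 was behind, with 34.1% against 56.6%, a gap of -22.6 points. Embryo 11 thus held a cell at 0.201% and a cell at 91.1% of chromosome 9 with nearly equal autosomal shares, 49.3 and 51.2%. The map of all cells shows them as rows out of step with their neighbours.

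**Figure D5:**
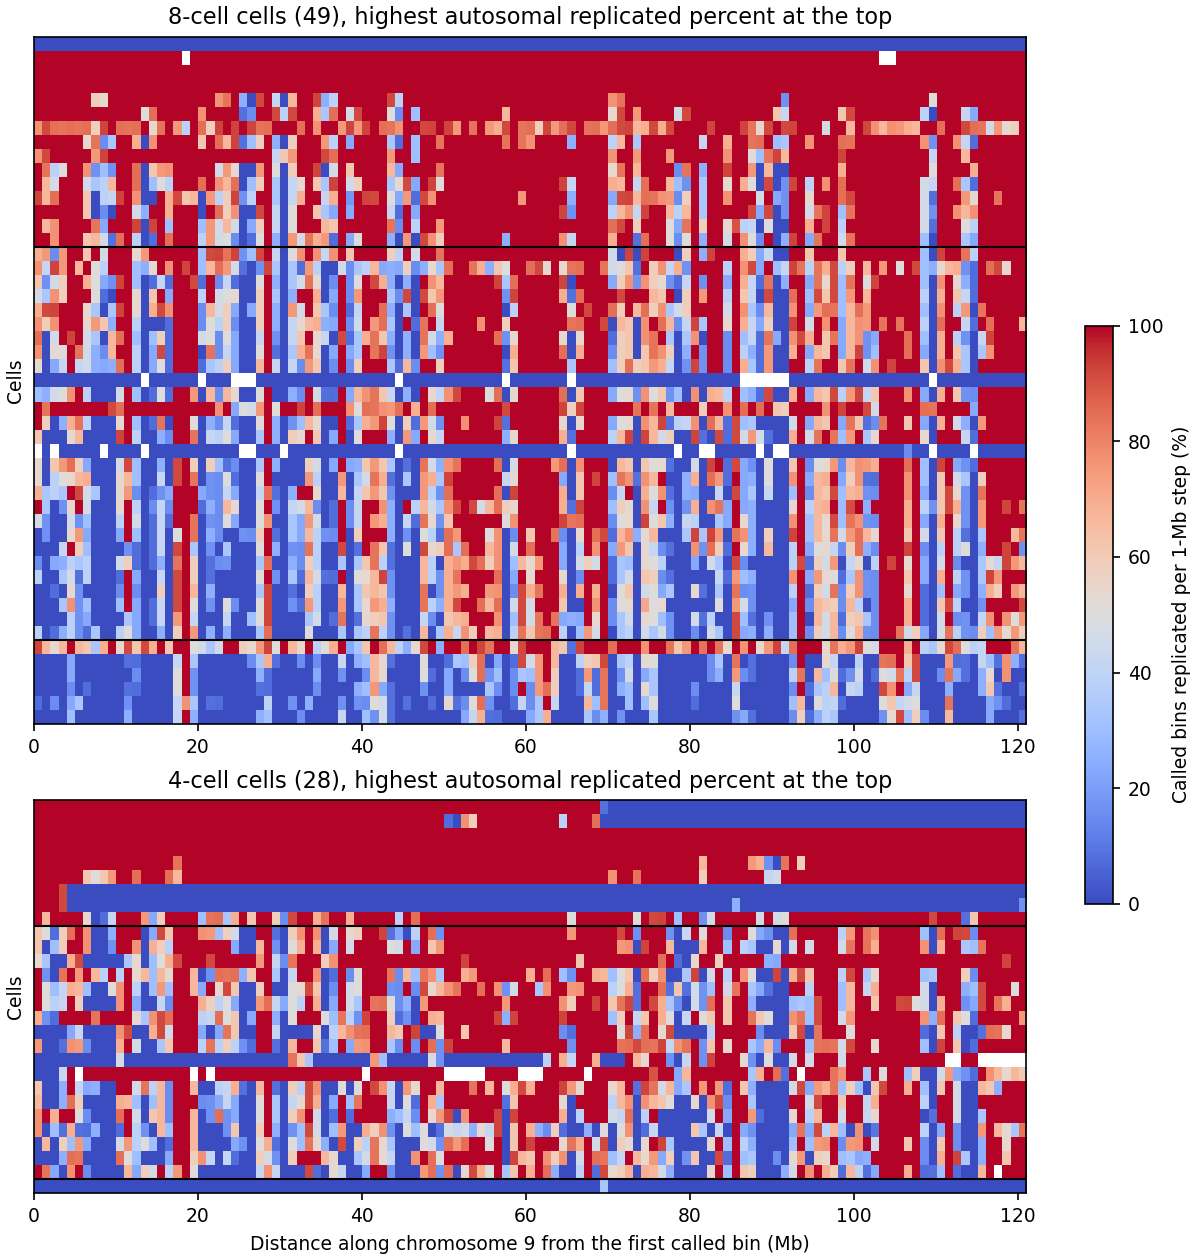
Replicated percent of the called bins in 1-Mb steps along chromosome 9 (distance from the first called bin), 1 row per cell, for 49 8-cell cells above and 28 4-cell cells below, sorted by autosomal share with the highest at the top. Red is replicated, blue unreplicated and white not called; black lines mark autosomal shares of 70 and 30%, and rows of a single colour are cells with blocks over the whole chromosome.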

How the data were processed

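Single-cell Repli-seq libraries of 77 blastomeres were made from whole-genome-amplified DNA, per the labels' protocols. The deposited binary tables give a state for each 80-kb bin and cell, a code with no unit, and the build, mm9, is named in the submitters' processing notes. For the aligner and the calling of states, the sources used here give no details. The codes were taken to mean replicated (1), unreplicated (-1) and uncalled (0), since counting the 1s over called autosomal bins gave the authors' deposited replication score, a percent, to within 4.98e-09. The files hold no reads, so the depth is unknown and no counting interval is given.

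Cells were averaged per embryo, the embryo identity being that of the authors' annotation. Nothing in the labels says whether the embryos shared a donor line, so p-values measure the spread between these embryos. Mid-S cells had 30 to 70% of autosomal bins replicated. Chromosome levels were tested with exact sign-flip tests and stage differences with exact permutation tests of embryo labels, two-sided, with Benjamini-Hochberg adjustment over 20 chromosomes for the levels. Where 6 or more bins were called, 1-Mb windows were fitted with limma 3.58.1 (R 4.3.3) over chromosomes 1 to 19 and X, with the autosomal percent as covariate. The rest was done in Python 3.11.15 with scipy 1.17.1, numpy 2.4.6 and pandas 2.3.3, and drawn with matplotlib 3.10.9. The statistics were tested on simulated data. Domains tolerated up to 3 other or uncalled bins inside. Regions named were windows past the threshold, the 6 longest early and late domains per stage, every block of 40 Mb or more, and 25 genes placed approximately. Domains beside the window and beside block ends were named for their place. The members, lists and tests were chosen with earlier results of these data known. Alternatives varied the mid-S range, limits, window size, batch, covariate and the cells or embryos left out. Promoter sequences are RefSeq's, GRCm38.p6, for 20 of 25 genes. Some genes are not reported here.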

Additional observations from a re-analysis of the deposited data

Results flagged for a closer look

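Embryo values were taken in 78 sets (levels, gene neighbourhoods and named domains at either stage). In 29 sets the highest or lowest embryo was set apart from the rest by Dixon's criterion. Its usual chance rate of about 1 of 20 sets holds for normally distributed values. Most of the values here are percents with fixed limits, often tied at a limit, so that rate does not apply and none is given. Foxl2 in 4-cell embryos, for example, was flagged at 91.7% against a next value of 100%. The sets share embryos and overlapping bins and are not independent. Most involve 2 embryos with mid-S block cells. For chromosome 9 minus autosomes, 8-cell embryo 12 stood at -27.0 points, with the next 8-cell embryo at -1.09. The same embryo stood at 50%, with the next at 75%, for Dnmt1, Smarca4, Cyp1a1, Foxl2, Tdgf1 and Ctnnb1. It was also at 50% in the early domains that begin at 20160001, 54320001, 63600001, 69840001, 106000001 and 119680001, with the next at 75%, or 75.6% for the one from 106000001.

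At the 4-cell stage, embryo 6 stood at 50% for Yap1 (next 83.3%), Dnmt1 (next 95.8%), Smarca4 (next 100%) and Atm (next 87.5%), and in the early domains from 19920001 (next 94.9%) and from 55760001 (next 80.6%). It was at 0% for Cyp1a1, with the next at 77.1%. It was the highest for Kirrel3, at 87.5% (next 54.2%), and in the late domain from 32480001, at 54.2% (next 18.8%).

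In the remaining sets, 8-cell embryo 11 was highest for Opcml at 18.2% (next 9.09%) and in the late domains from 32320001 at 20.7% (next 8.62%) and from 37680001 at 23.1% (next 10.6%). Cntn5 stood at 100% in 4-cell embryo 3 (next 50%), Zic1 at 70.8% in 4-cell embryo 1 (next 33.3%), Foxl2 at 91.7% in 4-cell embryo 14 (next 100%), and the early domain from 69680001 at 69.2% in 4-cell embryo 13 (next 86.5%).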

How the results depend on the processing

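No paired analysis was possible because the labels give the embryos of the stages no shared replicate numbers. Of 97 comparisons of 16 results with other settings, 65 were counted as unchanged. That meant the same call for a test, an equal or similar number for a count, and a shift below the SD over embryos for values without a test. This rule is wide: the 4-cell late share of 5.76% in the later batch, against 16.5% with an SD of 11.5, counted as unchanged. Without the chromosome 9 block cells, and equally without cells under 80% called, which are the same 3 mid-S cells and were chosen after seeing the data, the 8-cell level was 5.08 points (exact sign-flip test, adjusted p = 0.0174), the 4-cell level 3.77 points (adjusted p = 0.553), the stage difference turned to 1.3 points, the switch difference was 1.87 and that of phi 0.164. In the later batch alone the 4-cell level was 5.73 points (exact sign-flip test, adjusted p = 0.62; 4 embryos allow no unadjusted p under 0.125) and the phi difference 0.287, and at 40 to 60% of the autosomes the 4-cell level was 5.5 points (adjusted p = 0.156). Limits of 90 and 10% gave 20.3% early and 2.91% late bins at the 4-cell stage, and bins called in every mid-S cell gave 59.9% early and 4.97% late at the 8-cell stage. Windows of chromosome 9 called later numbered 0 with 2-Mb windows, at 40 to 60%, in the later batch, and without cells with a block on chromosome 9 or on any autosome, and 2 with the batch as a term. Those called earlier numbered 1 in the later batch, without cells with a block on any autosome, and with the batch term. Over all windows the calls (limma) numbered 2 with 2-Mb windows, 0 at 40 to 60%, where 163 had an unadjusted p under 0.05, 44 without cells with a block on any autosome and 57 with the batch term. Among mid-S cells alone 2 8-cell and 1 4-cell cells held a block.

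Leaving out 1 embryo at a time, the 4-cell level ran between 5.63 and 7.07 points, missing in 7 of 9 (exact sign-flip tests, adjusted p up to 0.0521; all 8 remaining embryos were above 0, so the unadjusted p was 0.00781, the smallest 8 allow, and the misses go with the fewer embryos), and the 8-cell level between 0.0582 and 4.03, the highest without embryo 12 (adjusted p = 0.0347). The stage difference ran between -6.38 and -2.41 points. The switch difference ran between 1.01 and 1.59, the highest without 8-cell embryo 12 (exact permutation test, p = 0.042), and the phi difference between 0.0876 and 0.22, the highest without 8-cell embryo 11 (exact permutation test, p = 0.00584). Early shares ran between 33.8 and 38.3% at the 8-cell and 38.2 and 43.5% at the 4-cell stage, and late shares between 28.9 and 33.4% and between 14.9 and 20%. Windows of chromosome 9 called later ran between 0 and 1, those called earlier between 0 and 1, and all windows called between 2 and 33.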
